A study of Homo sapiens with 9 samples.

Results

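Solute carriers are the largest group of membrane proteins that move amino acids, sugars, nucleotides, ions and vitamins across membranes, and their genes carry symbols of the form SLC, family number, A, member number. The genes described here are the 173 protein coding genes with such a symbol, with or without a further suffix, whose authors' mean exceeded 200 normalised reads in both deposited tables, of 337 protein coding symbols of this form in both tables. The authors' mean is the average over the 6 libraries of a table, and it was the value by which the members were chosen, so that being abundant in both tables is not a result. Of the other symbols, 32 had means above 50 in both tables and 132 did not. The lowest members inside the limit were SLC4A5, SLC25A45 and SLC30A10, with means of 207, 208 and 208 in the PABPC table, and the symbols just outside were SLC25A48, SLC25A35 and SLC15A2, with 199, 192 and 191. By the membrane in which each family is known to act, 36 members were mitochondrial SLC25 carriers, 84 belonged to plasma membrane families, 41 to families of endosomes, lysosomes, the Golgi or the endoplasmic reticulum, and 7 to families that fit no single class. The remaining 5 match the symbol by suffix only and are not transporters. Classes were assigned mainly by family, with exceptions for some genes, so a single member may act in another membrane than its class.

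Most SLC25 carriers sit in the inner mitochondrial membrane, where they exchange metabolites such as ADP and ATP, phosphate, citrate and carnitine esters between the matrix and the cytosol. They are encoded in the nucleus, translated on cytosolic ribosomes and imported, whereas plasma membrane transporters are translated at the endoplasmic reticulum and reach the surface through the secretory route. Both kinds of message carry a poly(A) tail, which is bound mainly by PABPN in the nucleus and mainly by PABPC in the cytoplasm.

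The question was how much of each transporter message was recovered with either protein. HEK293T cells, an established human embryonic kidney line of wildtype genotype, were crosslinked with 0.1% formaldehyde for 10 min, and each of 3 biological replicates gave a lysate that was divided between an antibody to PABPN and an antibody to PABPC. All groups share this crosslinking: 3 input libraries of total lysate RNA, 3 PABPN RIP libraries and 3 PABPC RIP libraries. RIP is RNA immunoprecipitation, and RNA was depleted of ribosomal RNA and sequenced as total RNA, so that spliced and unspliced RNA of a gene were counted together. All values come from 1 cell line, and in a bulk lysate fewer cells with a message and less message per cell cannot be told apart. The neurofilament genes NEFL and NEFM, which HEK293T cells are known to express, had authors' means of 13854 and 56817 in the PABPN table, while HBB, PTPRC and ALB of blood and liver were at 0, 0.804 and 8.64. COL1A1, a fibroblast collagen, was at 455.

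Each table mean is a sum of whole reads divided by size factors, printed with 15 digits, and this allowed the reads of each library to be worked out for 7373 genes, among them 74 of the 173 members. These comprised 13 SLC25, 33 plasma membrane, 18 endomembrane and 6 mixed members and 4 of the suffix genes. Values per library are given for them as normalised reads, that is reads divided by the size factor, and the libraries of a group are named a, b and c because the tables do not tell which replicate each is. The same letter in 2 groups does not mark a shared lysate. Recovery depended on abundance: 99.9% of the genes searched with a geometric mean of both tables from 200 to 1000 were recovered, against 7.03% in the highest range searched, which ended at 2200. For the other 99 members, most of them more abundant, only the table ratio is given, the PABPC table's mean over the PABPN table's mean after both were brought to the scale of the input libraries that they share. This ratio lies between 1 and the true ratio of PABPC RIP to PABPN RIP, so it gives the direction and a lower bound of the fold. The tables were normalised separately, and the ratio has no replicate error and no test.

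Both proteins bind tails that are added downstream of a cleavage signal, so the last 30 bases of the annotated message are shown for 3 of the recovered transporters highest in PABPC RIP over PABPN RIP and for the 3 lowest. SLC52A2 and SLC39A6, which also rank among the highest, are not shown. Capitals mark AATAAA or its common variant ATTAAA, the polyadenylation hexamers. Sequences are of hg38, on the strand of the gene, from the canonical transcripts of GENCODE release 44.
SLC39A3: tacttctttctcttaaaagtctttaccaaa
SLC25A4: tcaagcccttaAATAAAatttaacaaagtc
SLC25A15: gtgttctatcATTAAAttatttacttaata
SLC9A9: ttaatcctAATAAAtttttgttacaaagta
SLC22A15: tgtgaatgtAATAAAgaatcataaaacata
SLC38A6: aaaaagaaacaaactcgaaatgctcttaaa
They lie at chr19:2732524-2732553 (minus strand), chr4:185150353-185150382 (plus), chr13:40812431-40812460 (plus), chr3:143265222-143265251 (minus), chr1:116070025-116070054 (plus) and chr14:61052601-61052630 (plus). A hexamer stood in 2 of the 3 high and in 2 of the 3 low genes. Counting either hexamer on the strand of the gene, 134 of the 173 members (77.5%) held a match in this window, against 71.4% of 18852 protein coding genes. The shares were 77.8% for SLC25, 77.4% for plasma membrane and 82.9% for endomembrane members. The annotated end need not be the end used in these cells.

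Among the 13 SLC25 carriers with recovered reads, 8 were enriched with PABPC over input and none was depleted (adjusted p of at most 0.01 from limma and a log2 change beyond 0.5), with a median log2 change of 0.88. Over all 7373 genes fitted, 38.5% were enriched with PABPC and 32.4% depleted, with a median of 0.15. Over the 5473 protein coding genes among them, 45.1% were enriched and 23.8% depleted, and the median was 0.41. With PABPN, 3 of the 13 were enriched and none depleted, against 19.8% enriched and 9.55% depleted over all genes fitted. With size factors computed from the recovered genes in place of those of the authors, the PABPN counts of the carriers became 2 enriched and 3 depleted, with the median moving from 0.05 to -0.20. Directly between the RIPs, 7 of the 13 were higher with PABPC and 2 were higher with PABPN, against 32.0% and 40.4% over all genes fitted and 39.8% and 30.1% over protein coding genes.

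SLC25A4, the ADP/ATP carrier of heart and muscle, had 777, 902 and 942 normalised reads in the input libraries, 673, 611 and 618 in the PABPN RIPs and 2504, 3016 and 2964 in the PABPC RIPs. The 3 groups did not overlap, with every PABPC RIP above every input and every PABPN RIP below. The difference between the RIPs was 2.15 ± 0.11 on the log2 scale (SE, 3 libraries per group; limma adjusted p 9.6e-09), a 4.45-fold ratio. SLC25A4 shares long stretches with its paralogs SLC25A5 and SLC25A6, so reads may have been divided among them with some uncertainty. The gene lies on the plus strand at chr4:185143266-185150382 (hg38, GENCODE release 44) and has 4 exons.

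SLC25A15, which exchanges ornithine and citrulline for the urea cycle, had 821, 907 and 889 normalised reads in input, 682, 711 and 603 in PABPN RIP and 2194, 2345 and 2316 in PABPC RIP. It followed the same order of groups, again without overlap, and the RIPs differed by 1.78 ± 0.09 on the log2 scale (limma adjusted p 1.2e-08). SLC25A38, the glycine carrier needed for haem synthesis, had 1101, 1344 and 1395 in input, 1343, 1189 and 1093 in PABPN RIP and 2404, 3170 and 3268 in PABPC RIP. Its PABPN RIPs overlapped the input libraries and its PABPC RIPs did not. SLC25A22, a glutamate carrier, showed the same arrangement with 2188, 2490 and 2496 in PABPC RIP against 702, 961 and 979 in input. SLC25A20, which carries acylcarnitines for fatty acid oxidation, SLC25A30 and SLC25A14, 2 carriers related to the uncoupling proteins, completed the 7 carriers higher with PABPC, by 1.10, 1.24 and 0.53 on the log2 scale. The call of SLC25A14 was lost without PABPC RIP b (0.49) or PABPC RIP c (0.46), which left 6.

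The carriers on the other side were SLC25A53 and SLC25A29. SLC25A53, a carrier of unsettled substrate, had 855, 1087 and 1010 normalised reads in input, 1626, 1761 and 1542 in PABPN RIP and 718, 855 and 835 in PABPC RIP. All PABPN RIPs lay above all other libraries, and the RIPs differed by -1.03 ± 0.11 on the log2 scale (limma adjusted p 5e-06). SLC25A29, a carrier of basic amino acids, had 421, 269 and 280 in input, 732, 690 and 1065 in PABPN RIP and 589, 433 and 458 in PABPC RIP. It was enriched with PABPN by 1.36 ± 0.21 (limma adjusted p 0.00035), and its difference between the RIPs of -0.73 ± 0.21 (limma adjusted p 0.007) lost its call when any of PABPN RIP a, PABPN RIP c, PABPC RIP b or PABPC RIP c was left out (-0.81 to -0.54), and with size factors from the recovered genes (-0.56). SLC25A45 was enriched in both RIPs, with 365, 346 and 575 in PABPN RIP and 401, 307 and 308 in PABPC RIP against 173, 127 and 143 in input. Its input mean of 148 lay below 200, so it became a member through its RIP reads. Its enrichment, counted among the 8 carriers with PABPC and the 3 with PABPN, is therefore not independent of the choice of members. The 2 RIPs of SLC25A45 overlapped each other. SLC25A33, a pyrimidine nucleotide carrier, was called in no comparison, with changes of -0.16 and -0.12 against input. SLC25A40 and SLC25A43 differed between the RIPs by -0.42 and -0.38, within the limit of 0.5.

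**Figure D1:**
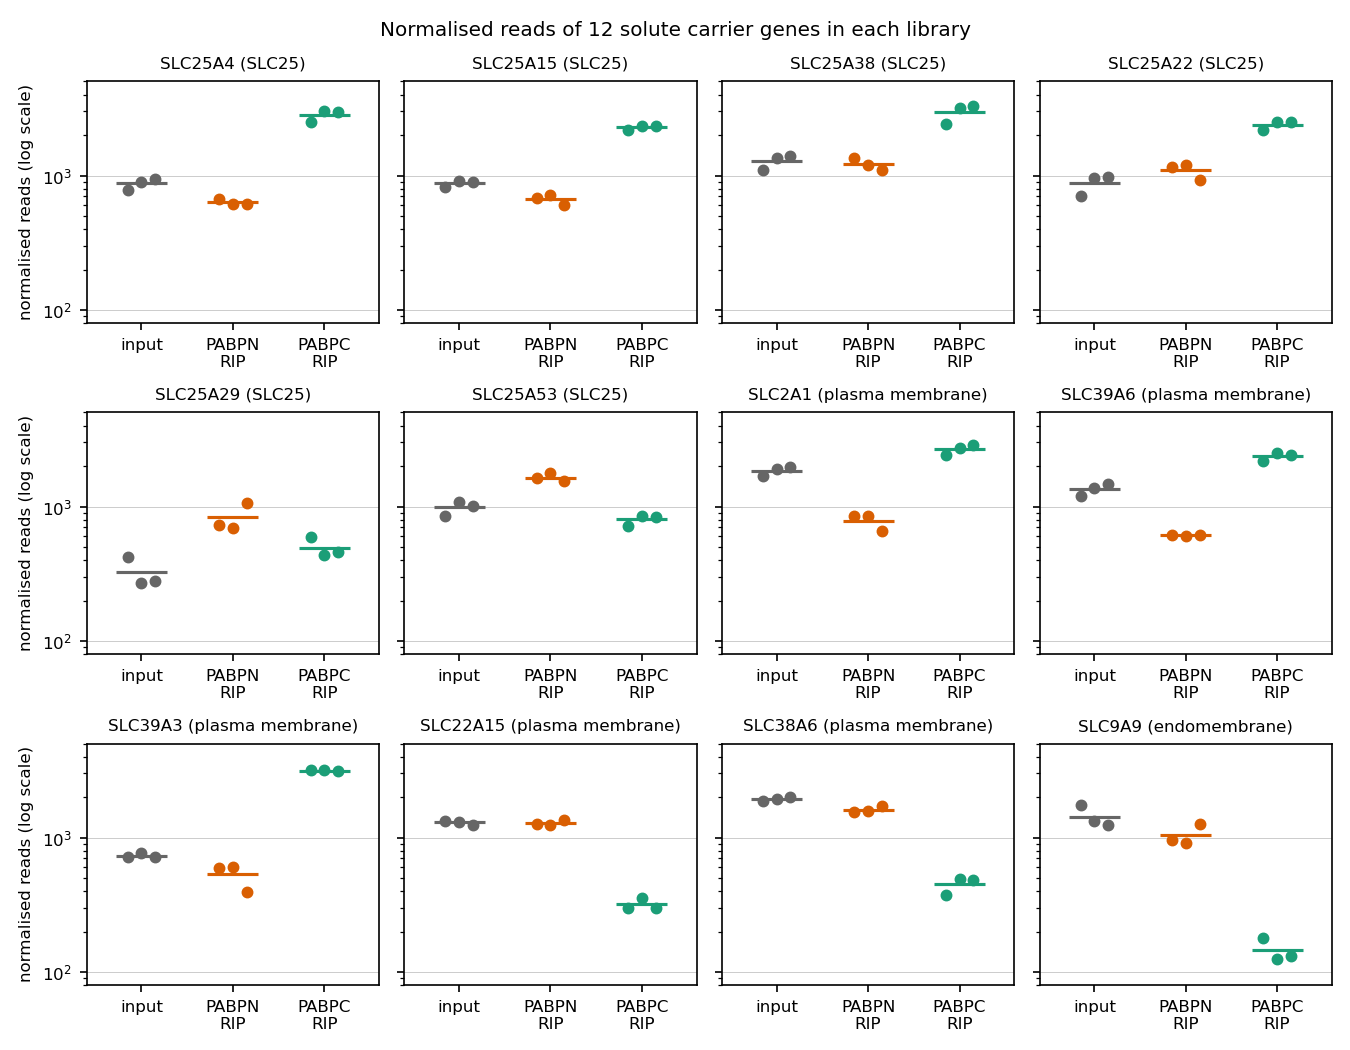
Normalised reads (log scale, y axis) in each of the 3 input, 3 PABPN RIP and 3 PABPC RIP libraries for 12 members, 1 panel each; points are libraries and bars their means. The PABPC RIP libraries of SLC25A4 lie at 2504 to 3016, all above input, whereas those of SLC9A9 lie at 125 to 180, all below.

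The 33 plasma membrane members with recovered reads were spread to both sides. With PABPC 9 were enriched and 9 depleted (27.3% each, against 38.5% and 32.4% over all genes fitted), and the median log2 change was 0.09. With PABPN 5 were enriched and 4 depleted (15.2% and 12.1%, against 19.8% and 9.55%), with a median of -0.10, and with size factors from the recovered genes 3 and 9, with a median of -0.35. Between the RIPs 10 were higher with PABPC and 10 with PABPN (30.3% each), the median difference was -0.15, and the members ranged from -2.02 to 2.71. The corresponding median of the SLC25 carriers was 0.53, and that of all 4062 protein coding genes fitted with means above 200 in both tables was 0.31. Of those genes 43.7% were higher with PABPC and 26.9% with PABPN, and against input 49% were enriched and 21.4% depleted with PABPC. No test was made between the classes, since the members were chosen with earlier results known.

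Among plasma membrane members the largest differences towards PABPC were those of riboflavin, zinc and glucose transporters. SLC39A3, a zinc importer, had 718, 764 and 713 normalised reads in input, 596, 603 and 395 in PABPN RIP and 3162, 3166 and 3112 in PABPC RIP. The PABPC RIPs exceeded input 4.30-fold and PABPN RIP 6.03-fold (log2 difference 2.59 ± 0.14, limma adjusted p 2.3e-08). SLC52A2, a riboflavin transporter, had 590, 802 and 837 in input, 391, 382 and 272 in PABPN RIP and 1960, 2336 and 2511 in PABPC RIP, and its 2 RIPs differed in opposite directions from input, by -1.09 and 1.62 on the log2 scale. The same opposition was called for SLC2A1 and SLC39A6. For SLC2A1, however, the PABPC call was lost with size factors from the recovered genes (0.45) and after centring on the median (0.38). That call was also lost without input a (0.46) or PABPC RIP c (0.48). SLC2A1, the basal glucose transporter, had 1672, 1913 and 1966 in input, 848, 847 and 654 in PABPN RIP and 2435, 2740 and 2868 in PABPC RIP. SLC39A6, a zinc importer, had 1199, 1374 and 1460, then 615, 599 and 613, and then 2197, 2515 and 2431. For both genes no library of a group overlapped another group, and the RIPs differed by 1.78 ± 0.12 and 1.96 ± 0.09 on the log2 scale (limma adjusted p 9.4e-08 and 8.6e-09).

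SLC2A3, a high-affinity glucose transporter with a near-identical paralog in SLC2A14, was higher with PABPC than with PABPN by 1.31 ± 0.18 on the log2 scale (limma adjusted p 3.9e-05). SLC7A8, a light chain of the neutral amino acid exchangers, was depleted with PABPN (log2 change -0.76 ± 0.12, limma adjusted p 0.00036) and not called with PABPC, with 252, 219 and 207 normalised reads in PABPN RIP against 363, 364 and 419 in input. SLC30A1, the zinc exporter of the cell surface, and SLC1A4, a neutral amino acid transporter, had the largest standard errors of the 74 members, 0.32 and 0.35 for the difference between the RIPs. SLC1A4 had 1100, 545 and 507 in input, 431, 445 and 820 in PABPN RIP and 1947, 950 and 1066 in PABPC RIP. SLC30A1 had 725, 1284 and 1288, then 1055, 928 and 541, and then 1362, 2611 and 2655. In each of them input a, PABPN RIP c and PABPC RIP a stood apart from the other 2 libraries of their group. The RIPs differed by 1.22 ± 0.35 and 1.38 ± 0.32 on the log2 scale (limma adjusted p 0.0076 and 0.0019), and the call of SLC30A1 was lost without PABPC RIP b or PABPC RIP c, where the differences were 1.23 and 1.22. That of SLC1A4 was lost without PABPN RIP a, PABPN RIP b, PABPC RIP a or PABPC RIP c, with differences of 0.90 to 1.33.

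At the other end, SLC22A15, an organic ion transporter, had 1325, 1311 and 1248 normalised reads in input, 1257, 1237 and 1356 in PABPN RIP and 300, 356 and 297 in PABPC RIP. The PABPN RIPs overlapped input, and the PABPC RIPs were 4.04-fold below the PABPN RIPs (log2 difference -2.02 ± 0.10, limma adjusted p 8e-09). SLC38A6, of the neutral amino acid family, had 1855, 1932 and 1985 in input, 1540, 1574 and 1728 in PABPN RIP and 376, 491 and 481 in PABPC RIP, with no overlap between any of its groups. SLC4A5, a sodium bicarbonate cotransporter, SLC24A4, a sodium, calcium and potassium exchanger, and SLC13A3, a dicarboxylate transporter, were likewise depleted with PABPC, with log2 changes of -1.97, -1.89 and -1.95, and not called with PABPN. The PABPC RIP means of SLC4A5, SLC24A4 and SLC13A3 lay below 200, so these genes became members through the other groups. With size factors from the recovered genes, SLC38A6 and SLC13A3 were called lower with PABPN as well, at -0.51 each. SLC9A5, a sodium and proton exchanger, differed from them: it was enriched with PABPN, with 849, 869 and 1081 in PABPN RIP against 417, 345 and 340 in input, while 423, 388 and 367 in PABPC RIP overlapped input. SLC6A16, an orphan of the neurotransmitter transporter family, was enriched with PABPN and depleted with PABPC, with log2 changes of 0.71 ± 0.10 and -0.56 ± 0.10 (limma adjusted p 0.00021 and 0.00035). Its PABPN call was lost with size factors from the recovered genes (0.46), and its PABPC call without PABPC RIP a (-0.47).

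Of the 18 endomembrane members with recovered reads, 9 were higher with PABPC and 3 higher with PABPN (50% and 16.7%), with a median difference of 0.46. Over protein coding genes fitted with means above 200 in both tables the shares were 43.7% and 26.9%, with a median of 0.31. Against input, 12 were enriched and 3 depleted with PABPC (66.7% and 16.7%, against 38.5% and 32.4% over all genes fitted). Over the same protein coding genes these shares were 49% and 21.4%. With PABPN 6 were enriched and 2 depleted (33.3% and 11.1%, against 19.8% and 9.55%), which became 3 and 5 with size factors from the recovered genes. SLC50A1, a Golgi sugar transporter, had 264, 212 and 264 normalised reads in input, 424, 409 and 411 in PABPN RIP and 1375, 1316 and 1290 in PABPC RIP. It was enriched in both RIPs, 1.69-fold with PABPN and 5.40-fold with PABPC. SLC39A13, a zinc transporter of intracellular vesicles, SLC48A1, a haem transporter, SLC30A10, a manganese exporter, and SLC2A8, an intracellular hexose transporter, were also enriched in both, although with size factors from the recovered genes SLC48A1 and SLC2A8 lost the PABPN call and SLC2A8 the PABPC call. The input mean of SLC30A10 was 171, below 200, so it became a member through its RIP reads. SLC35A2, the UDP-galactose transporter of the Golgi, was enriched with PABPC and not called with PABPN, with 1451, 1754 and 1936 in PABPC RIP against 481, 612 and 565 in input. SLC31A2, a copper transporter, was depleted with PABPN and enriched with PABPC, with log2 changes of -0.60 ± 0.12 and 1.13 ± 0.12 (limma adjusted p 0.0023 and 6.1e-06). Its PABPN call was lost without input c (-0.53) or PABPN RIP c (-0.50).

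SLC9A9, an endosomal sodium and proton exchanger, had the lowest PABPC RIP of the 74 members relative to input. It had 1731, 1319 and 1237 normalised reads in input, 965, 917 and 1266 in PABPN RIP and 180, 125 and 131 in PABPC RIP. The PABPN RIPs overlapped input, while the PABPC RIPs lay 7.20-fold below the PABPN RIPs (log2 difference -2.85 ± 0.18, limma adjusted p 6.1e-08). The PABPC RIP mean of SLC9A9 was 146, below 200, so it became a member through the other groups. The gene spans chr3:143265222-143848485 on the minus strand. SLC29A3, a nucleoside transporter of lysosomes, was the only recovered member depleted in both RIPs under the size factors of the authors, with log2 changes of -0.67 for PABPN and -0.82 for PABPC and with 569, 508 and 475 and then 472, 462 and 463 against 789, 826 and 858 in input. With size factors from the recovered genes it was 1 of 4, together with SLC9A9, SLC38A6 and SLC13A3.

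**Figure D2:**
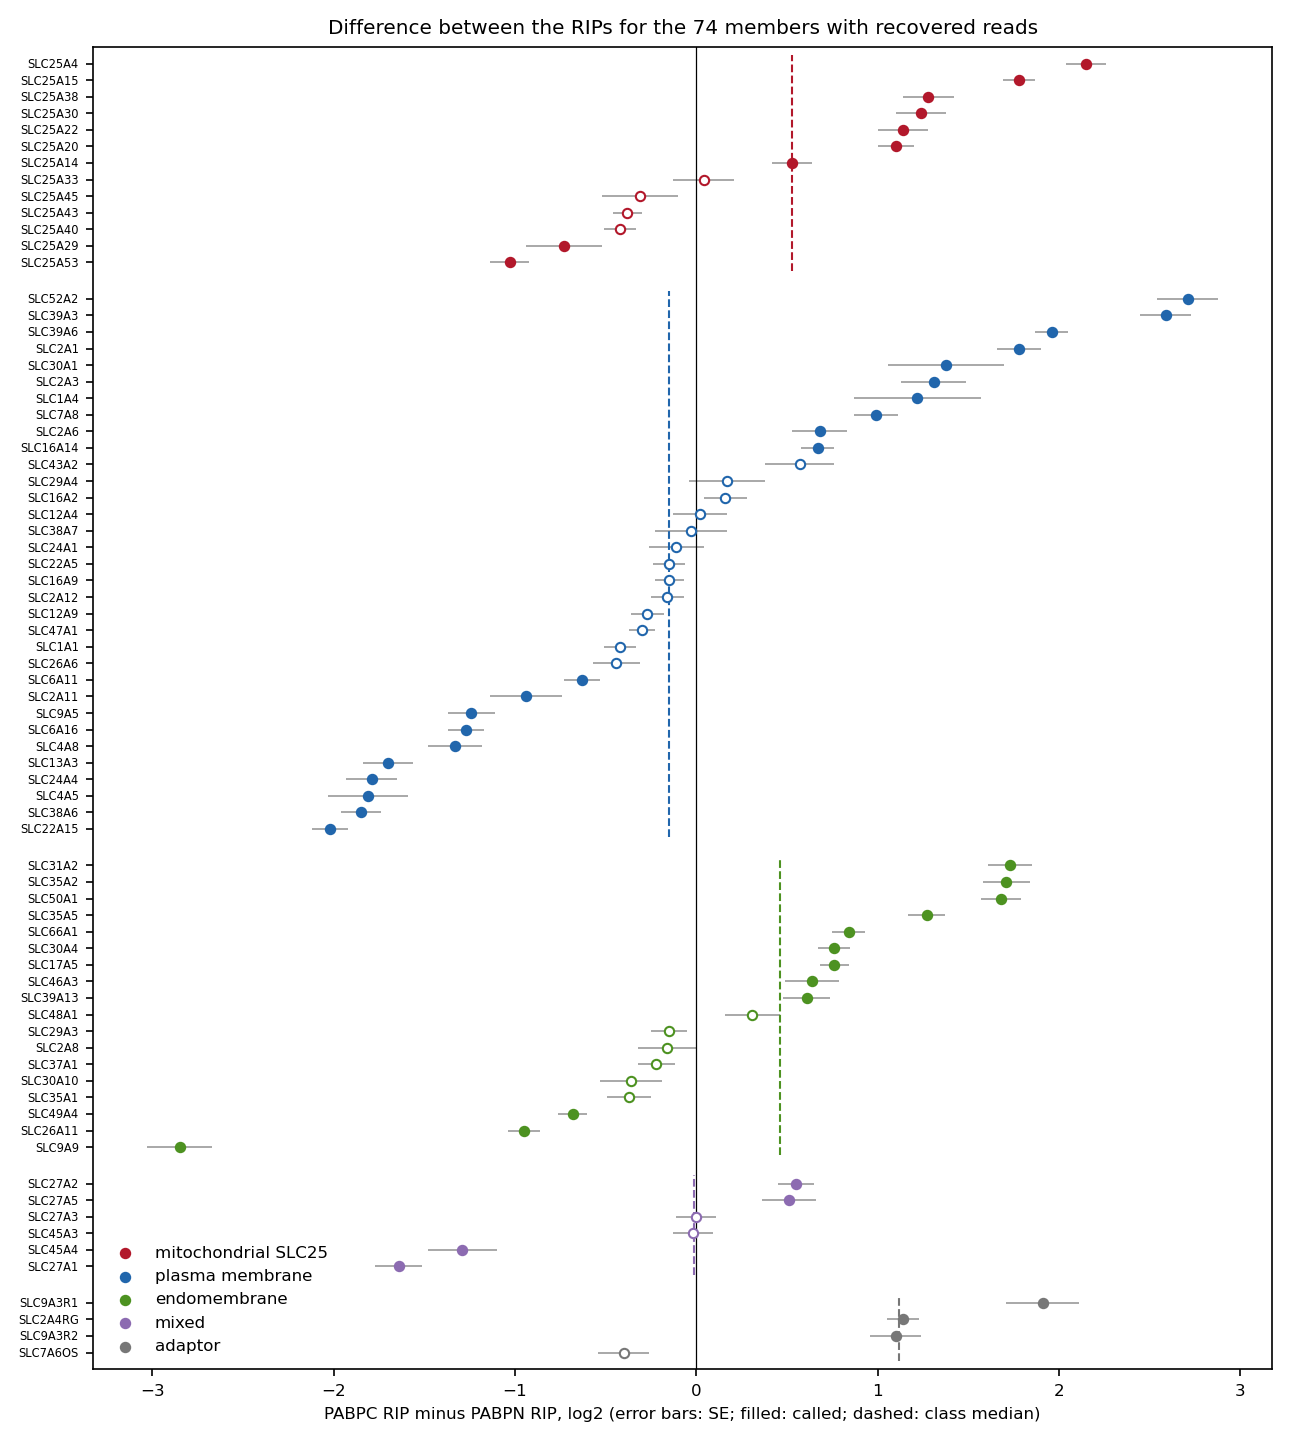
PABPC RIP minus PABPN RIP on the log2 scale (x axis) for the 74 members with recovered reads, grouped by class; error bars are SE, filled points passed the call and dashed lines are class medians. SLC25 carriers centre at 0.53 and plasma membrane members at -0.15, with wide overlap.

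Over all 74 members with recovered reads, 35 were enriched and 13 depleted with PABPC, 20 were enriched and 8 depleted with PABPN, and between the RIPs 31 were higher with PABPC and 17 with PABPN. As shares these were 47.3% and 17.6% with PABPC, 27% and 10.8% with PABPN, and 41.9% and 23% between the RIPs. Over the protein coding genes fitted with means above 200 in both tables they were 49% and 21.4%, 18.1% and 13.7%, and 43.7% and 26.9%. The counts for PABPN depended on the scale: with size factors from the recovered genes, 10 were enriched and 19 depleted, and the median over all genes fitted moved from 0.07 to -0.18. Under those size factors the counts between the RIPs were 32 and 15. Of the 74 members, 60 had PABPC RIP libraries that did not overlap the PABPN RIP libraries, as did 83.7% of all genes fitted. In 6 members the mean of 1 group lay below 200, so that they passed the limit through the other groups. These were SLC25A45 and SLC30A10 in input, and SLC9A9, SLC13A3, SLC24A4 and SLC4A5 in PABPC RIP.

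The fatty acid transporter SLC27A1, in a mixed family, had 385, 383 and 372 normalised reads in input, 818, 886 and 756 in PABPN RIP and 310, 266 and 218 in PABPC RIP. It was called enriched with PABPN and depleted with PABPC, a pattern shared among the recovered members only by SLC6A16. Only SLC27A1 had it with size factors from the recovered genes. The PABPC call of SLC27A1 was lost without input b (-0.53) or PABPC RIP c (-0.40). Of the genes that are not transporters, SLC9A3R1 and SLC9A3R2, scaffold proteins of sodium and proton exchangers, and SLC2A4RG, a regulator of a glucose transporter gene, were higher with PABPC than with PABPN by 1.91, 1.10 and 1.14 on the log2 scale. SLC7A6OS, which is encoded opposite SLC7A6, had 2616, 2573 and 1898 in PABPN RIP and 1545, 1884 and 1896 in PABPC RIP against 1078, 1354 and 1315 in input, and was enriched in both, its PABPC call being lost with size factors from the recovered genes (0.43). The library kit kept strand, and the annotation used for counting left out positions that genes share. SLC4A1AP, a nuclear RNA binding protein, had a table ratio of 1.00.

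The table ratio covered all 173 members, including the abundant ones. At a limit of 1.2-fold, 73 members had the higher mean with PABPC and 45 with PABPN, against 35.7% and 37.5% of the 14581 genes with means above 50 in both tables, and 40.9% and 29.7% of protein coding genes above 200. Of the 36 SLC25 carriers, 18 were higher in the PABPC table and 10 in the PABPN table, with a median log2 ratio of 0.20. Of the 84 plasma membrane members, 34 and 24 were, with a median of 0.04, and of the 41 endomembrane members 16 and 9, with a median of 0.01. The median over protein coding genes above 200 was 0.09. Among members without recovered reads alone, the median was 0.11 for 23 SLC25 carriers and 0.16 for 51 plasma membrane members. These medians lay close. Their order was the reverse of that for the fitted difference between the RIPs among members with recovered reads, which is another measure. By share, 47.8% of these SLC25 carriers were higher in the PABPC table and 34.8% in the PABPN table. For these plasma membrane members the shares were 45.1% and 27.5%. When members were taken from a mean of 50 instead, the SLC25 median was 0.07 over 38 carriers and the plasma membrane median 0.02 over 109 genes.

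Among SLC25 carriers without recovered reads the highest ratios were those of SLC25A11 and SLC25A5. SLC25A11, the oxoglutarate and malate carrier, had a PABPN table mean of 1668 and a PABPC table mean of 4848, a ratio of 3.40. SLC25A5, the ADP/ATP carrier of growing cells, had 4456 and 12495, a ratio of 3.28, and it was the most abundant member per length, at 2865 normalised reads per kb in the PABPN table. SLC25A5 has many processed copies in the genome, so its level is uncertain. SLC25A1, the citrate carrier, SLC25A3, the phosphate carrier, SLC25A23, an ATP-Mg and phosphate carrier, and SLC25A39, a glutathione carrier, followed at 2.98, 2.55, 2.52 and 2.18. A ratio above 2 also bounds PABPC RIP against input, which was at least 2.40-fold for SLC25A11, at least 2.28-fold for SLC25A5 and at least 1.98-fold for SLC25A1.

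The carriers with the lowest ratios were SLC25A27, SLC25A16, SLC25A21, SLC25A37 and SLC25A36. SLC25A27, a brain uncoupling protein, had table means of 3290 for PABPN and 1444 for PABPC, so that PABPN RIP exceeded PABPC RIP at least 1.95-fold. SLC25A16, SLC25A21, a carrier of oxodicarboxylates, SLC25A37, the iron importer mitoferrin, and SLC25A36, a pyrimidine nucleotide carrier, had bounds of 1.75, 1.65, 1.58 and 1.51. SLC25A28, the paralog of mitoferrin, lay on the same side at 1.33. The aspartate and glutamate carriers SLC25A12 and SLC25A13 had ratios of 0.697 and 0.963, and SLC25A26, which imports S-adenosylmethionine, 0.799. Between these ends SLC25A24, SLC25A32, SLC25A44 and SLC25A46 had ratios from 1.4 to 1.62, and SLC25A17, SLC25A25 and SLC25A51 had ratios from 0.995 to 1.08, which give no direction beyond the limit.

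**Figure D3:**
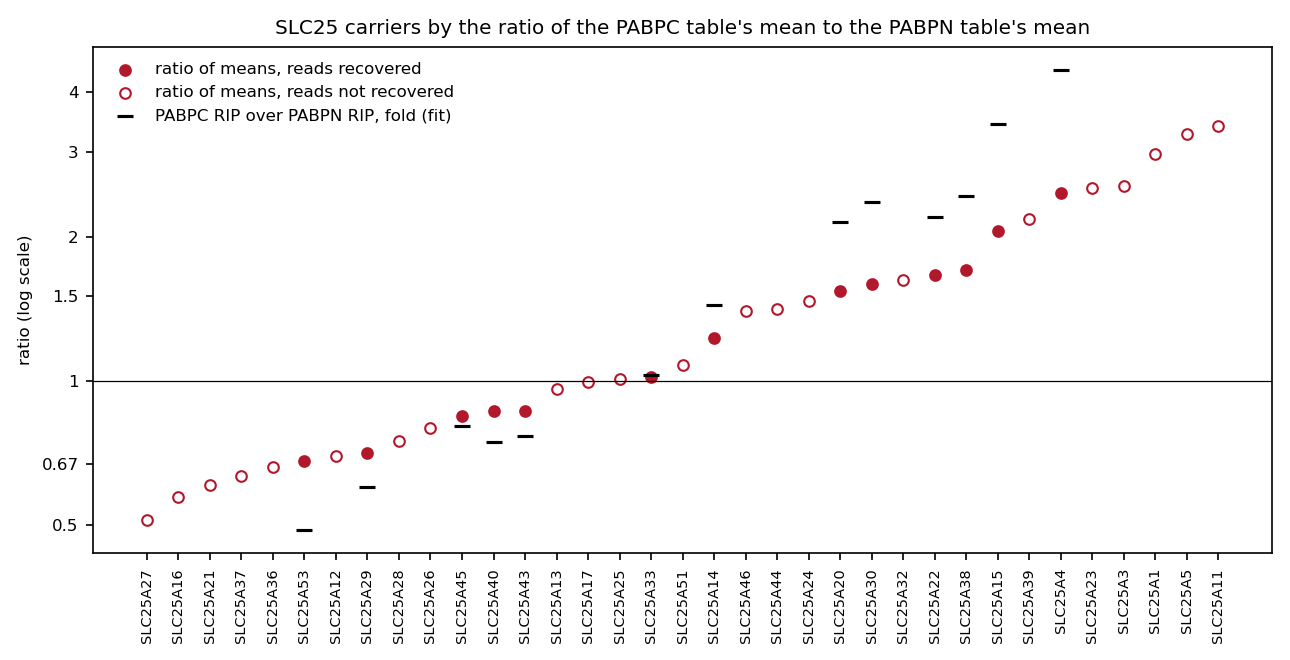
SLC25 carriers (x axis, 35 of the 36) in order of the PABPC table's mean over the PABPN table's mean (points, log scale), filled where reads per library were recovered; black bars give the fitted ratio of PABPC RIP to PABPN RIP for those. Ratios run from 0.513 for SLC25A27 to 3.40 for SLC25A11, and each bar lies at or beyond its point, as a bound requires.

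Among abundant plasma membrane transporters, SLC39A1, a zinc importer, had the highest ratio, 3.07, with means of 2259 and 5923. The amino acid transporters SLC7A5 and SLC1A5, which import leucine and glutamine, had ratios of 2.35 and 2.24, and SLC16A1, the lactate transporter, 1.70. SLC9A3, a sodium and proton exchanger, had 2.39. SLC3A2, the heavy chain that pairs with SLC7A5, had table means of 6113 and 5847, a ratio of 1.12, below the limit. Further well-known transporters with the higher mean in the PABPC table were SLC39A14, SLC20A1, SLC39A10, SLC38A2, SLC29A1, SLC38A1 and SLC7A1, importers of metals, phosphate, nucleosides and amino acids, with ratios from 1.26 to 1.67. SLC7A6 and SLC19A1 had 1.03 and 1.02, SLC12A2 1.12 and SLC7A11 0.965, all within the limit. Among those without recovered reads, the furthest towards PABPN were SLC44A5, a choline transporter-like protein, SLC8A1, the sodium and calcium exchanger, SLC2A13, a myo-inositol transporter, and SLC16A10, an aromatic amino acid transporter, with bounds of 1.64, 1.60, 1.59 and 1.42 for PABPN over PABPC RIP.

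In the endomembrane class, SLC35A4, of the nucleotide sugar family, reached a ratio of 3.38, and SLC39A7, which releases zinc from the endoplasmic reticulum, 2.16. SLC33A1, the acetyl-CoA transporter of the endoplasmic reticulum, was at 1.02, and SLC38A9, a lysosomal arginine sensor, at 0.756. SLC39A11, SLC10A7, SLC9A8 and SLC38A10 were lowest of the class without recovered reads, at 0.638 to 0.684. By family, 9 of the 10 members of SLC39, mainly zinc importers, had the higher mean in the PABPC table, against 1 in the PABPN table. For SLC30, mainly zinc exporters, it was 5 of the 7 members against 0. Of the SLC7 amino acid transporters 4 of 6 did, and none was higher in the PABPN table. In the SLC4 bicarbonate family 4 of 5 members were higher in the PABPN table, the exception being SLC4A2 at 1.5. The glucose transporter family was divided, 3 of 7 in one direction and 2 in the other. SLC6 and SLC16 were evenly split, each with 2 of 6 members on either side. Over all members the shares were 42.2% and 26%, and over protein coding genes above 200 they were 40.9% and 29.7%. These families were picked after their values were seen, and no test was made on them.

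The ratio varied with the span of the gene, the distance from its first to its last base including introns. Across the 173 members Spearman's rho of the table ratio was -0.58 with the span, -0.38 with the deposited exonic length, -0.30 with the coding length and -0.33 with the number of exons. For the 74 members with recovered reads, rho with the span was -0.78 for PABPC RIP over input, -0.19 for PABPN RIP over input and -0.59 for the difference between the RIPs. These are descriptions across genes measured in the same libraries, and over the 11039 protein coding genes above 200 with an annotation the same rho was -0.65. Of the 58 members spanning up to 27.3 kb, 43 had the higher mean in the PABPC table and 4 in the PABPN table, while of the 58 spanning at least 66.3 kb, 10 and 29 did. Among protein coding genes in the same ranges of span the shares were 69.4% and 9.79% for short genes, and 10.3% and 57.1% for long genes.

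The classes differ in span, with medians of 26.2 kb for SLC25, 56.3 kb for plasma membrane and 50.7 kb for endomembrane members. Among the short genes, 14 of 19 SLC25 and 15 of 21 plasma membrane members had the higher mean in the PABPC table, with medians of 0.70 and 0.49. Among genes of 28.8 to 65.0 kb it was 3 of 12 and 11 of 25, with medians of -0.11 and 0.16. Over protein coding genes in this range 39.9% were higher in the PABPC table and 22.6% in the PABPN table, with a median of 0.13. Among the long genes 1 of 5 SLC25 and 8 of 38 plasma membrane members were higher in the PABPC table. There 3 and 18 were higher in the PABPN table, and the medians were -0.32 and -0.20. The order of the 2 class medians thus differed between ranges of span, in small groups and without a test. Among the exceptions were SLC2A3, SLC39A14, SLC39A10 and SLC39A8, which span 99.8 kb, 66.9 kb, 162 kb and 180 kb and had the higher mean in the PABPC table, and SLC25A27 and SLC25A28, which span 25.3 kb and 12.3 kb and had the higher mean in the PABPN table. The part of intronic reads in these differences was not tested, since exonic and intronic reads were counted together.

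**Figure D4:**
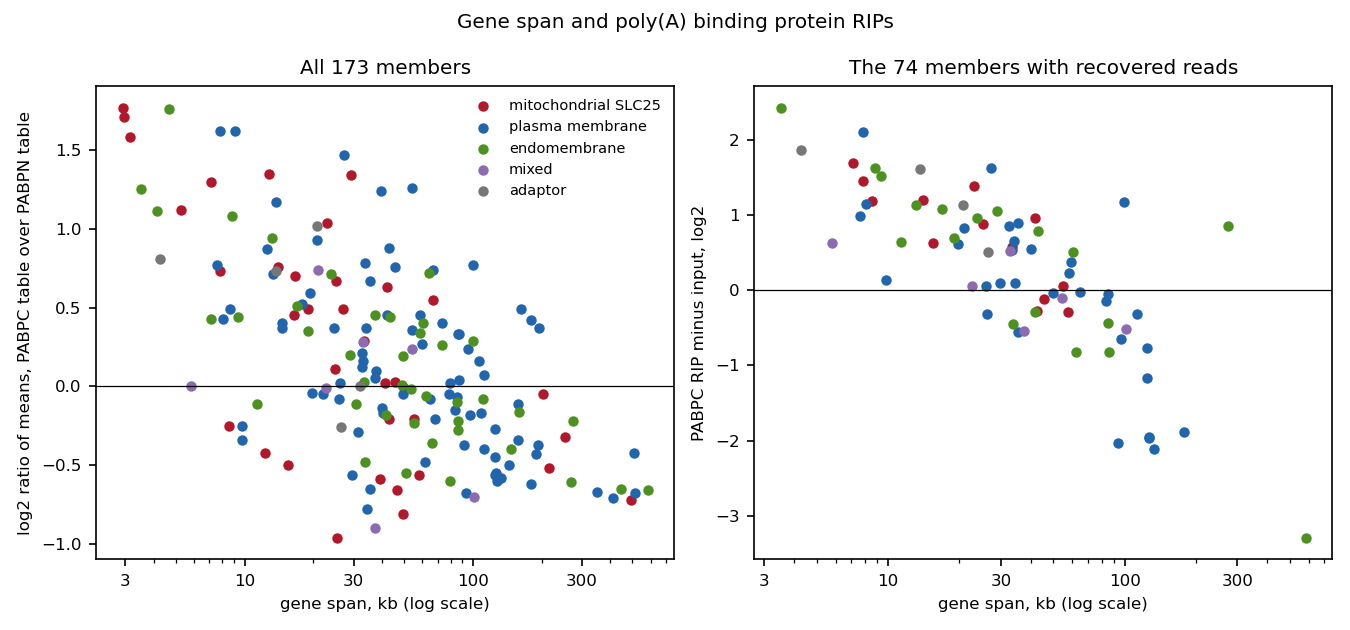
Span of the gene in kb (x axis, log scale) against the log2 table ratio of all 173 members (left) and against PABPC RIP minus input on the log2 scale for the 74 members with recovered reads (right), coloured by class. Values fall with span in both panels (rho -0.58 and -0.78).

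Genes of related transport outside the symbol rule were set beside the members. Of 15 mitochondrial genes such as the pyruvate carrier subunits, sideroflexins and voltage-dependent channels, all above 200 in both tables, 12 had the higher mean in the PABPC table and 2 in the PABPN table, with a median log2 ratio of 0.80. Of 15 plasma membrane genes such as sodium pump subunits and export pumps, 7 and 3 did, with a median of 0.02. Of 15 SLC35 transporters whose symbols carry another letter, 9 and 1 did, with a median of 0.36. Over protein coding genes above 200 in both tables the shares were 40.9% and 29.7%, with a median of 0.09. The lists hold few genes, their gene spans were not compared, and no test was made on them.

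The libraries of a group were not equally alike. Over the 4752 recovered genes with means above 200 in both tables, the deviations of input a, PABPN RIP c and PABPC RIP a from their group means correlated at 0.57 to 0.78 with each other, and at -0.68 to -0.45 with the remaining libraries of the other groups. Deviations from a group mean cancel within the group, so the negative values follow in large part from the positive ones. The remaining libraries correlated most within the sets input b, PABPN RIP a and PABPC RIP c (0.39 to 0.59) and input c, PABPN RIP b and PABPC RIP b (0.50 to 0.62), although the alternatives lay close, at 0.36 to 0.54. Within these 3 sets the ratio of PABPC RIP to input of SLC1A4 was 1.77, 1.96 and 1.87, and the ratio of PABPN RIP to input of SLC9A9 was 0.731, 0.731 and 0.741, narrower than the spread between libraries of a group. The sets were matched on these same reads, so narrower ratios within them were largely fixed by the matching. Whether a set is a shared lysate is not given by the tables. Leaving all 3 out at once, a choice made after the values were seen, gave 29 members higher with PABPC and 17 higher with PABPN between the RIPs, 37 and 14 against input with PABPC, and 22 and 10 with PABPN.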

How the data were processed

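Processed data were 2 tables of the 9 libraries (3 input, 3 PABPN RIP, 3 PABPC RIP), 1 per RIP, each over 6 libraries. The authors aligned reads of 75 nt to hg38 with STAR, counted them with featureCounts 2.0.2 over introns and exons together, in an annotation without overlapping stretches, and fitted with DESeq2; bedtools is also named in the submitters' processing notes. The deposited signal column is the mean of counts divided by size factors, and another deposited column is the gene length. The tables also hold the authors' fold changes, standard errors, statistics and p-values, which are their own comparisons and were not used. On the listed genes the normalised mean per library was 45539045 reads for the PABPN table and 43640812 for the PABPC table.

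Single-read genes gave the value of 1 read in each library. A library was taken as input where its single reads entered both tables, with 0 exceptions. Reads per library were then solved as whole numbers that give both means, and kept where the best solution led all others together by at least 7 natural log units and the rounding residual was at most 0.62 of the last digit. This residual limit, and the use of the libraries' own spread (from genes above 500) in the score, were chosen after seeing the data. Of 14581 genes with means above 50 in both tables, 8952 were searched and 7373 recovered, holding 3820181 to 5299541 reads per library, a part of each library. With 1 digit removed 599 of 600 genes were recovered and with 2 digits 364, in each case with 0 different reads, and in simulated reads 629 of 800 genes were recovered, 0 of them wrongly. Recovery leaves out genes with high means. The PABPC table was brought to the scale of the PABPN table with the factor 1.17 from the shared input, where single input libraries gave 1.163 to 1.182.

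Fits used limma 3.58.1 in R 4.3.3 on log2((reads + 0.5) / size factor), with lmFit, eBayes with trend, all 9 libraries and Benjamini-Hochberg adjustment over the 7373 genes. Calls needed an adjusted p of at most 0.01 and a log2 change beyond 0.5. In simulated counts for PABPC RIP against PABPN RIP, 199 of 200 genes changed 2-fold were called, and 2 of the unchanged genes. Those counts had the same dispersion for every gene and independent libraries. They lack the unequal spread and the shared deviations of the libraries here, so these rates need not hold for the data. The 3 replicates of a group are independent biological replicates per the labels. No count model was run, since the reads are worked out from means and not read from a count column. Positions came from GENCODE release 44, which held all 173 members. The members, classes and lists were chosen with earlier results of these data known. Named members were the SLC25 carriers (1 is not reported here by name), a list of well-known transporters, the suffix genes and the 5 highest and lowest of each class; families and other members named for comparison were chosen after their values were seen. Alternatives were other size factors, centring, pseudocount, filter, voom weights, log2 limit, recovery lead and leaving out each library.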

Additional observations from a re-analysis of the deposited data

How the results depend on the processing

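No paired analysis was possible because the recovered libraries carry no replicate numbers. A fit added after seeing the data took the 3 library sets that deviate together as a block. It gave 39 members enriched and 14 depleted with PABPC, 22 and 8 with PABPN, and 32 and 17 between the RIPs, lost no call, and added calls with PABPC for SLC1A4, SLC30A1, SLC25A29, SLC38A7 and SLC45A4. The sets were matched on these same reads, so its p-values may be too small. Leaving out each library in turn gave 31 to 38 members enriched and 12 to 14 depleted with PABPC, 16 to 22 and 6 to 9 with PABPN, and 28 to 31 and 16 to 18 between the RIPs. With a log2 limit of 1 the counts were 18 and 7 with PABPC, 6 and 3 with PABPN, and 20 and 12 between the RIPs. Size factors from the recovered genes gave 10 members enriched and 19 depleted with PABPN, where the share enriched among called members moved from 71.4% to 34.5%, and the cause was not tested. The table ratio, taken from the means as deposited without the scale of the shared input, gave 47 members higher in the PABPC table and 74 in the PABPN table, because the tables differ by 0.23 on the log2 scale. No called difference between the RIPs turned direction for any of the 45 members examined singly under the alternatives run. With the limit kept at 0.5, besides SLC25A29, SLC30A1 and SLC1A4, calls between the RIPs were lost for SLC25A14 without PABPC RIP b or c, for SLC49A4 after centring on the median, and for SLC27A5 without any of 6 libraries (0.36 to 0.55), and for SLC27A5 with 3 libraries left out at once (0.30). Of the other members, SLC39A13 lost its call without PABPC RIP a (0.45) and with the 3 libraries left out (0.48), and SLC6A11 with other size factors (-0.46) and after centring (-0.43). SLC7A6OS gained a call without PABPN RIP c. For the members without recovered reads, most of which had high means, neither PABPN nor PABPC can be set against input beyond the bounds given.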
